A study of Mus musculus with 8 samples.

Results

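Peaks of phosphorylated RNA polymerase II were described at 4 genes of 21532 protein-coding genes of the mouse: Gata1, Gata2 and Gata3, which encode GATA-type zinc finger transcription factors, and Zfpm1, which encodes their cofactor Fog1. The genes were chosen by name, and every peak that overlapped the RefSeq GRCm38 interval of a gene or the 20 kb on each side of it was taken. The cells were MEL, a mouse erythroleukaemia line, with the genotype Myrlin KD, a knockdown of a transcript made at an enhancer upstream of Myb, or with the genotype dCAS control; the design text names dCAS for both lines. Libraries were made by CUT&Tag, in which an antibody tethers a transposase that tags the chromatin nearby, with an antibody against the Rpb1 C-terminal domain phosphorylated on serine 2 (Ser2P) or on serine 5 (Ser5P). Each of the 4 groups, Ser2P KD, Ser2P control, Ser5P KD and Ser5P control, had 2 replicates. No label tells whether replicates came from separate cultures or how many clones a line stands for, so differences are read against the spread between libraries, which may be technical.

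Gata1 is the principal transcription factor of the red cell lineage and activates globin, haem and membrane genes. Gata2 acts before it in stem and progenitor cells, and in mouse erythroid precursors Gata1 takes its place at regulatory elements upstream of and inside Gata2 while that gene is silenced. Gata3 serves T cells and other tissues. Fog1 binds the N-terminal finger of Gata1 and brings in repressor complexes such as NuRD and CtBP. Ser5P marks polymerase near the start of transcription, and Ser2P builds up as elongation proceeds.

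Overlapping peaks of the 8 libraries merged into 41 sites in the windows of the 4 genes, of 56005 sites genome-wide. Zfpm1 held 26 of them, Gata1 and Gata3 held 6 each and Gata2 held 3. A peak in all 8 libraries was found at 14 of the 41 sites, where 21% of sites genome-wide had one, and 6 sites rested on 1 library, where 39.3% did. The windows held 33 and 31 Ser2P peaks in the KD libraries and 31 and 23 in the controls, and 25 and 25 Ser5P peaks in the KD libraries and 21 and 22 in the controls. The whole Ser2P lists held 32125 and 29372 peaks in the KD libraries and 30286 and 20793 in the controls, and the Ser5P lists held 21574 and 24509 in the KD libraries and 23964 and 25441 in the controls. Ser2P control 2 had the shortest list and the narrowest peaks, with a median width of 381 bp against 428 to 479 bp in the other Ser2P libraries. At the Myrlin enhancer, 81 kb upstream of Myb, Ser2P covered 0 and 316 bp in the KD libraries and 302 and 0 bp in the controls, and Ser5P 275 and 0 bp in the KD libraries and 513 and 237 bp in the controls, within 2000 bp on each side; this does not measure the Myrlin transcript. Median widths were larger in KD than in control libraries for both antibodies, at 478 and 479 bp against 428 and 381 bp for Ser2P and at 533.5 and 532 bp against 486 and 497 bp for Ser5P. Among erythroid marker genes, Klf1, Epor, Tfrc, Epb42 and Hbb-bs carried a Ser5P promoter peak in all 4 Ser5P libraries, whereas Slc4a1, Alas2, Rhag and Hba-a1 did not; 37.7% of all genes had one. Such a peak was found for 0 of 10 T lymphoid markers, 0 of 10 myeloid markers and 4 of 12 mast cell and megakaryocyte markers.

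The windows run from 250 bases before to 50 bases after a listed transcription start, credited to RefSeq (GRCm38.p6). They are printed 5′ to 3′ because they differ in how many Ser5P libraries had a peak inside them. All 4 genes matched the table, Gata2 with a pair of starts. Capitals mark bases that lay inside a Ser5P peak in all 4 Ser5P libraries.
Gata1, chrX:7967861-7968160, minus strand: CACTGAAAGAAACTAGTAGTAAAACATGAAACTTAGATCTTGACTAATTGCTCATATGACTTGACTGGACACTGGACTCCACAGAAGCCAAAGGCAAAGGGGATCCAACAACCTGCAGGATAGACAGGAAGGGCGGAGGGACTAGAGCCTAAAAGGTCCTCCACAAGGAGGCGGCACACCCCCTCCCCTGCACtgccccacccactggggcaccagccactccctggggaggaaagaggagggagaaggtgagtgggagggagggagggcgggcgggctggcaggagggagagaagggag
Zfpm1, chr8:122281891-122282190, plus strand: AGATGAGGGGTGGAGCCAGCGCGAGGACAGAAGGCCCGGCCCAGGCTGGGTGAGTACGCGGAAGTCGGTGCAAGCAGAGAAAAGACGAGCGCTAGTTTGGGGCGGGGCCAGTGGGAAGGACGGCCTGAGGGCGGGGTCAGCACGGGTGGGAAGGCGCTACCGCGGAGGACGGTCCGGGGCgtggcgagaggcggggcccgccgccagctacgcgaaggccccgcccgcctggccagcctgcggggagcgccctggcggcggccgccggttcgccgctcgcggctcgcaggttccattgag
Gata3, chr2:9878551-9878850, minus strand: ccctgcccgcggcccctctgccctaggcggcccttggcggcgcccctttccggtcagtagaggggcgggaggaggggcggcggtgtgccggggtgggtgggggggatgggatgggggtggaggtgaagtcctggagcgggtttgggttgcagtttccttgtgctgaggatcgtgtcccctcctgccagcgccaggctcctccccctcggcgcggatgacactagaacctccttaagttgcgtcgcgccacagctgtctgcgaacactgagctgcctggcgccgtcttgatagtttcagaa
Gata2, outer start, chr6:88193641-88193940, plus strand: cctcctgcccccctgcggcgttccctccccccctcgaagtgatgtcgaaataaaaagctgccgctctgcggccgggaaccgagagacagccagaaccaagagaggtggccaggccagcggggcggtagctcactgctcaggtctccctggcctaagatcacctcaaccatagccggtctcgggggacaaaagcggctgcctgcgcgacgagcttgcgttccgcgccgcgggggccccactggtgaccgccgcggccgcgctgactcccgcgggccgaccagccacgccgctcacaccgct
Capitals cover 193 of 300 bases for Gata1 and 180 of 300 for Zfpm1, in both cases the upstream end of the window, and 0 bases for Gata3 and for both Gata2 windows. In Gata3 a Ser5P peak reached 72 bases of the window in KD 1 and all 300 bases in control 1, and none in the other Ser5P libraries. In the wider zone of 1000 bp each side of the Gata3 listed start, all Ser5P libraries had a peak. Ser5P covered 371 and 276 bp of that zone in the KD libraries and 766 and 229 bp in the controls. GC content was 57.3% for Gata1, 73.7% for Zfpm1, 67.3% for Gata3 and 69.3% and 73.7% for the outer and the inner Gata2 start, against a median of 56.3% over 21262 listed promoters. A GATA factor motif was searched on both strands in 4 spellings: AGATAA or, with a final G, AGATAG, and TGATAA or, with a final G, TGATAG. It occurs in 26.0% of the listed promoters. Gata3 held 1 such word, TGATAG at 36 bases after the start, and the other windows held 0. CACCC, a word bound by Klf-type factors, was present on either strand in Gata1, at 74 and 52 bases before the start, 3 times each in Gata3 and Zfpm1 and 1 time at the inner Gata2 start, with 59.5% of listed promoters holding it. CCAAT was found only at the inner Gata2 start among these windows (38.2% of listed promoters), TATAAA in none of them (12.6%), and CGCG in all but Gata1 (49.2%).

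The gene intervals place the starts differently. Gata1 occupies chrX:7959260-7976663, minus strand, and its listed start at 7967910 lies 8.75 kb inside the outer 5′ end. Gata3 occupies chr2:9857078-9887953, also minus strand, and its listed start lies 9.35 kb inside. Gata2 occupies chr6:88193891-88207032, plus strand, with listed starts at the outer end and 4.77 kb inside. Zfpm1 occupies chr8:122281856-122337862, plus strand, with its listed start 0.285 kb inside. A promoter zone of 1000 bp on each side of the outer 5′ end was used for all genes, and zones around the listed starts were added after this was seen. Exons and introns were not used here.

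**Figure D1:**
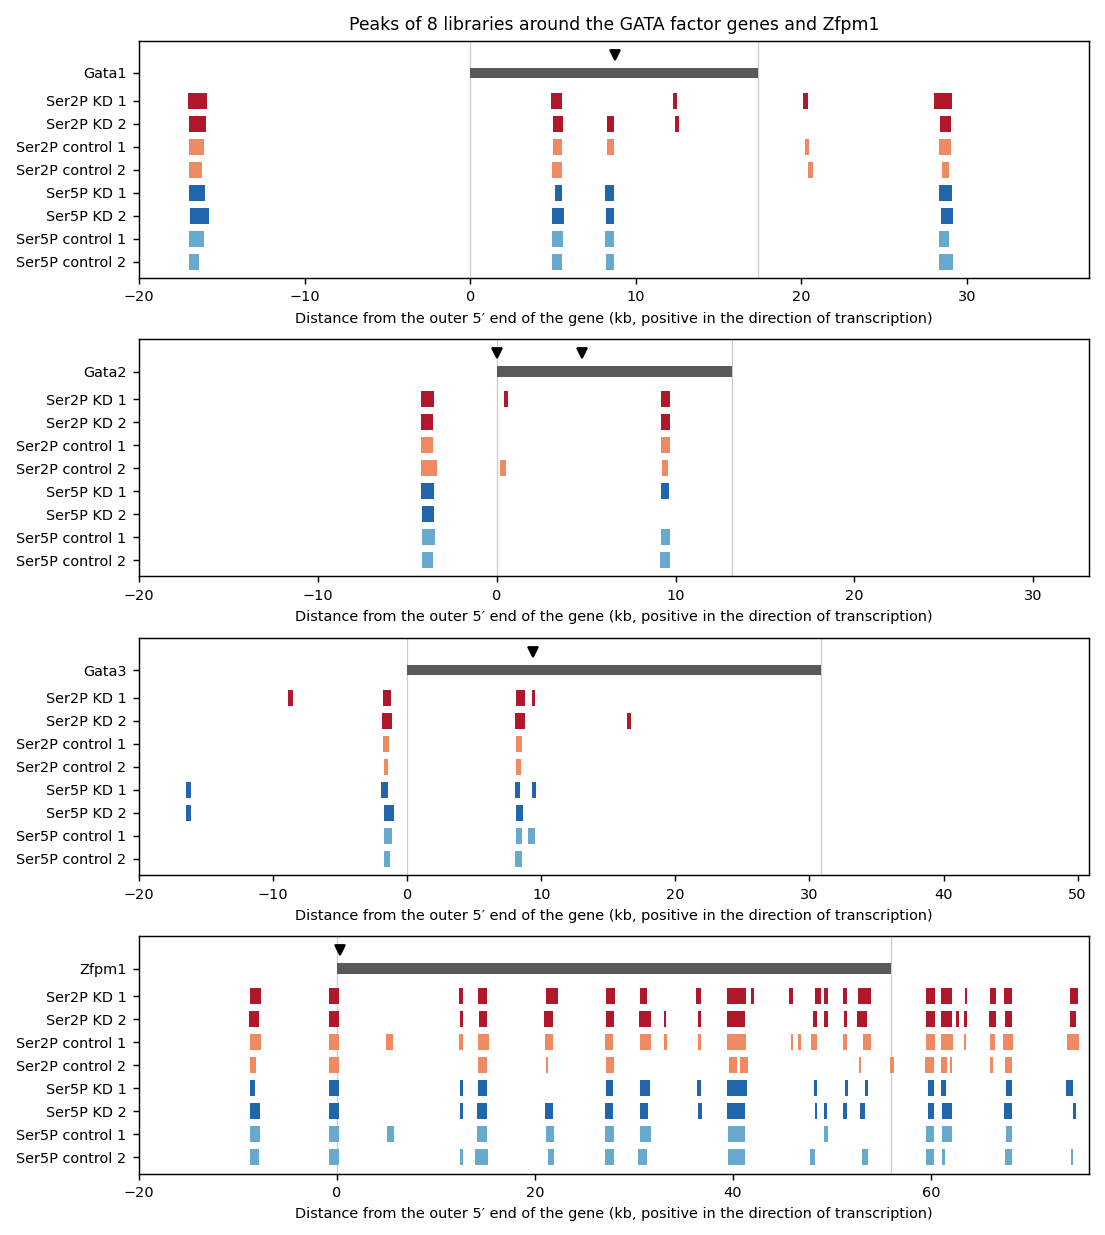
Peaks (bars) in each of the 8 libraries, plotted by distance in kb from the outer 5′ end of each gene; the grey bar is the gene interval and triangles are listed starts. Peaks in all 8 libraries stand at 3 sites around Gata1, 1 at Gata2, 2 at Gata3 and 8 at Zfpm1.

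At Gata1, Ser2P had a peak just upstream of the listed start in KD 2 and in control 1, whereas Ser5P had a peak there in all 4 libraries. In a zone of 1000 bp each side of the listed start, Ser2P covered 0 and 453 bp in the KD libraries and 442 and 0 bp in the controls. Ser5P covered 555 and 470 bp in the KD libraries and 539 and 483 bp in the controls. For both antibodies the KD and control values overlapped. No library had a peak in the zone around the outer 5′ end of the interval.

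A Gata1 site with summits 3.5 kb upstream of the listed start, at chrX:7971017-7971762, held a peak in all 8 libraries. Its Ser2P peaks were 629 and 627 bp wide in the KD libraries and 567 and 624 bp in the controls, and its Ser5P peaks were 412 and 714 bp in the KD libraries and 664 and 629 bp in the controls. By fold, the site ranked higher than the one at the start in each of the 6 lists that held both: the authors' fold, a value that belongs to each list, stood there between the 34.8th and the 70.5th percentile of its list, and that of the start site between the 9.12th and the 31.6th. By −log10 q the order was turned in Ser5P control 1, with the 61.3rd percentile for the upstream site and the 63.4th for the start site. Mouse Gata1 is known to have a haematopoietic enhancer upstream of its erythroid start, and overlap of the site with it was not tested.

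Around Gata1, flanking peaks lay on both sides of the gene. A site at chrX:7947486-7948620, at the 5′ end of Hdac6, the gene of a cytoplasmic deacetylase, had a peak in all 8 libraries. So did one at chrX:7992442-7993680, 16.8 kb upstream of the outer 5′ end and within the long noncoding gene Gm39488. That noncoding gene, at chrX:7948145-8032975, also spans the whole of Gata1, so it does not set the upstream site apart. The Gata1 start site and the site 3.5 kb upstream of it also overlap the long noncoding gene Gm52419. Sites of lower rank carried Ser2P without Ser5P. One, 3.0 kb past the 3′ end, had a peak in KD 1 and in both controls. The other, at chrX:7964067-7964387 inside the gene, had a peak of 235 and 251 bp in the KD libraries and none in the controls. That pattern, a peak in both KD libraries and neither control, held for 5.07% of sites with a Ser2P peak genome-wide.

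Gata1 coverage in whole zones did not separate the lines in the gene body. Ser2P covered 864 and 1331 bp of the body in the KD libraries and 1009 and 624 bp in the controls. Ser5P covered 967 and 1184 bp in the KD libraries and 1203 and 1112 bp in the controls. Both pairs overlapped. In the flanks Ser5P covered 1737 and 1922 bp in the KD libraries and 1524 and 1426 bp in the controls, with no overlap, a pattern shown by 20.1% of genes with Ser5P in the flank in any library. The mean difference, KD minus control, was 354.5 bp (two-sided exact permutation test, p = 0.333, the lowest value that 2 libraries against 2 allow). It was 0 bp with a flank of 10 kb, since no Ser5P peak lay in that flank in any library. It was 0 bp too when each peak was replaced by 100 bp on each side of its summit. Every Ser5P library had the same number of flank peaks, so fixed widths had to give 0 bp. Neither setting could show a difference here. The downstream part of the Ser5P flank coverage was the peak at the 5′ end of Hdac6. Ser5P covered 775 and 758 bp there in the KD libraries and 634 and 834 bp in the controls, which overlapped. On the upstream side it covered 962 and 1164 bp in the KD libraries and 890 and 592 bp in the controls, without overlap.

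At Gata2 few peaks were called at either start. Within 1000 bp of the outer start, Ser2P covered 251 and 0 bp in the KD libraries and 0 and 351 bp in the controls, and Ser5P covered 0 bp in all 4 libraries. No peak lay within 1000 bp of the inner start in any library. A Ser5P promoter peak in all 4 libraries was found for 37.7% of all genes.

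The Gata2 sites that recurred lay away from the starts. The upstream one lies within the long noncoding gene Gm38708, whose interval also spans the outer Gata2 start. A site 4.03 kb upstream of the outer start, at chr6:88189639-88190545, held a peak in all 8 libraries; Ser2P covered 728 and 678 bp there in the KD libraries and 692 and 907 bp in the controls, and Ser5P 709 and 660 bp in the KD libraries and 756 and 623 bp in the controls. KD and control values overlapped for both antibodies. A site 9.37 kb inside the gene, at chr6:88203009-88203597, held a peak in 7 libraries and made up the whole of the body coverage. Ser2P covered 455 and 456 bp there in the KD libraries and 455 and 339 bp in the controls, and Ser5P covered 433 and 0 bp in the KD libraries and 467 and 589 bp in the controls. Ser5P at this inner site was thus lower in both KD libraries than in both controls, and absent from the list of KD 2. Such an order was shown by 16.1% of genes with Ser5P in the body in any library. The difference was -311.5 bp (exact permutation p = 0.333), and with limma across 6725 genes the covered share differed by -2.57 ± 1.46 percentage points (SE, adjusted p = 0.735). In KD 1 the peak stood at the 7.87th percentile of its list by −log10 q, close to the end of the list. With only peaks at −log10 q of at least 5, or without KD 1, Gata2 was control-only here, and without KD 2 the difference was -95 bp. Elements upstream of and inside Gata2 that GATA factors bind are known from mouse haematopoietic cells, and whether these sites coincide with them was not tested.

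Gata3 had peaks of both antibodies in the gene body and the flanks, and 0 bp in the zone around the outer 5′ end in all 8 libraries. Of 10 T lymphoid markers, 2 had a Ser2P body peak in all 4 Ser2P libraries, namely Lck, a T cell kinase gene, and Tcf7, a T cell transcription factor gene, where 20.1% of all genes did. A site 1.09 kb upstream of the listed start, at chr2:9879177-9879912, held a peak in all 8 libraries, and a site 1.61 kb upstream of the outer 5′ end, at chr2:9888973-9889922 and overlapping the long noncoding gene 9230102O04Rik, did so too. At the listed start itself, a peak was present in Ser2P KD 1, Ser5P KD 1 and Ser5P control 1. By fold the recurrent pair ranked above most peaks of their lists, from the 71.2nd to the 92.8th and from the 64.0th to the 90.0th percentile.

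Gata3 was the member whose coverage stood apart most often between the lines. In the body Ser2P covered 928 and 1006 bp in the KD libraries, against 458 and 400 bp in the controls. In the flanks Ser2P covered 1021 and 724 bp in the KD libraries, against 428 and 310 bp in the controls, and Ser5P 902 and 1124 bp in the KD libraries, against 567 and 429 bp in the controls. All 3 sets had both KD libraries above both controls. The same order was shown by 30.9% of genes for Ser2P in the body, 44.1% for Ser2P in the flanks and 20.1% for Ser5P in the flanks, each among genes covered in any of the 4 libraries, and peaks were wider in the KD lists as a whole. With lists cut to the same number of peaks, the differences of 538, 503.5 and 515 bp, KD minus control, came to 276.5, 313 and 300 bp. With 100 bp on each side of the summit in place of the peaks, they came to 201, 100.5 and 201 bp. With a flank of 10 kb the Ser5P flank difference was 126 bp. Much of the body difference for Ser2P lay within 1000 bp of the listed start, where 660 and 407 bp were covered in the KD libraries and 200 and 142 bp in the controls. With that zone taken as the promoter, the body held 268 and 599 bp of Ser2P in the KD libraries and 258 and 258 bp in the controls, a difference of 175.5 bp. In the body Ser5P overlapped, with 664 and 544 bp in the KD libraries and 1037 and 522 bp in the controls.

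By limma across all genes, the Gata3 differences did not pass. The covered share of the body for Ser2P was 1.80 ± 0.63 percentage points higher in KD cells (SE, unadjusted p = 0.0470, adjusted p = 0.424 over 7320 genes; 0.61 ± 0.59 points with the listed start, adjusted p = 0.759), that of the flanks for Ser2P was 1.29 ± 0.56 points higher (adjusted p = 0.352 over 12414 genes), and that of the flanks for Ser5P was 1.32 ± 0.44 points higher (unadjusted p = 0.0316, adjusted p = 0.535 over 11322 genes). Over all genes tested the median difference was 0.53, 0.92 and 0.09 points in these zones. Part of the flank coverage came from a Ser5P site 16.3 kb upstream of the outer 5′ end, at chr2:9904048-9904477, which had peaks of 348 and 430 bp in the KD libraries and none in the controls. A peak in both KD libraries and neither control was found for 2.17% of sites with a Ser5P peak. In KD 2 the peak at this distal site stood at the 3.48th percentile of its list by −log10 q, close to the end of the list. With lists cut to the same number of peaks the site was no longer KD-only. Peaks at 2 further places, 16.6 kb inside the gene and 8.74 kb upstream, were each present in 1 Ser2P KD library.

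**Figure D2:**
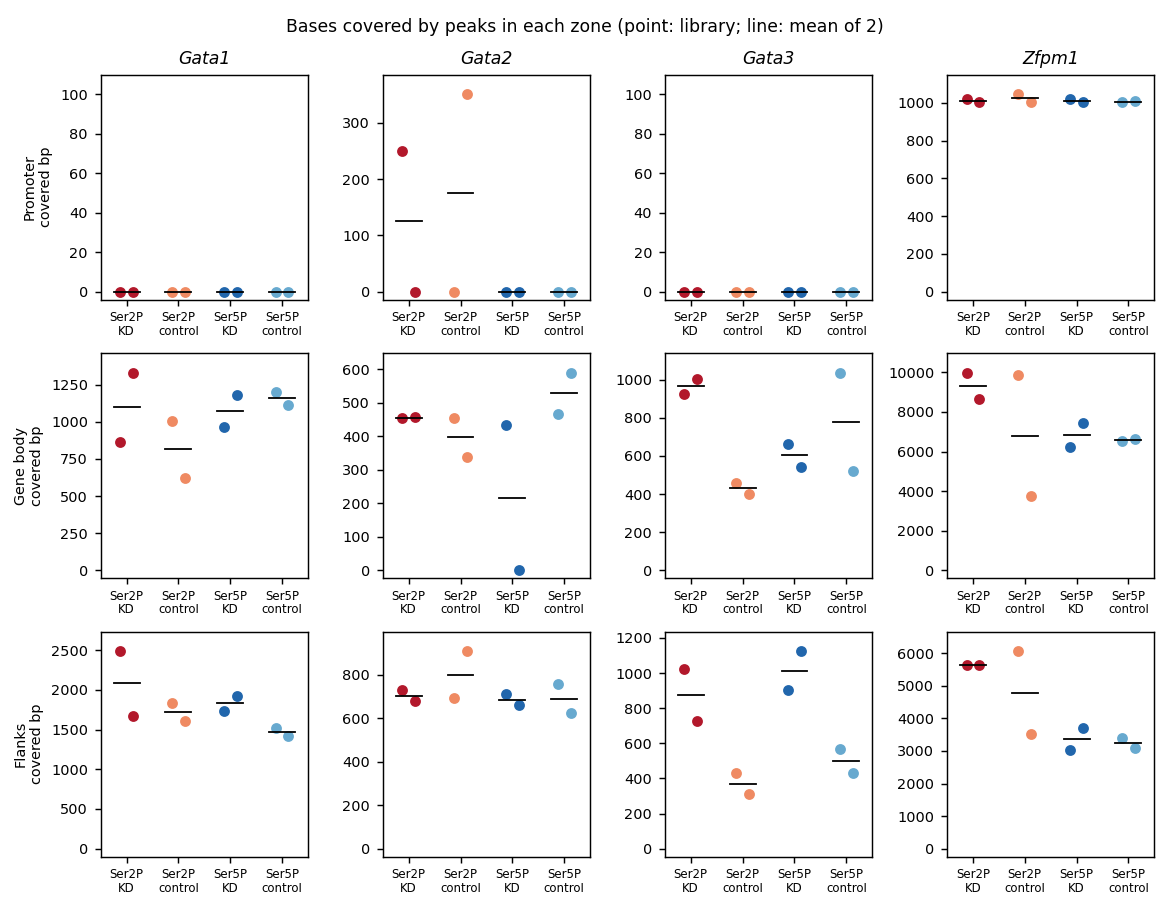
Bases covered by peaks (y axis, bp) in the promoter zone, gene body and flanks of each gene; points are libraries, lines the mean of 2, with KD left of control for each antibody. Both KD points lie above both control points for Gata3 in the Ser2P body and flank panels and in the Ser5P flanks, whereas the Zfpm1 promoter sits between 1002 and 1045 bp in all 8 libraries.

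Zfpm1 was the most densely marked of the 4 genes. Its promoter zone was covered over 1020 and 1002 bp by Ser2P in the KD libraries and 1045 and 1002 bp in the controls, and over 1020 and 1002 bp by Ser5P in the KD libraries and 1002 and 1009 bp in the controls. The peak, which also overlapped the long noncoding gene Gm39269, spanned chr8:122281025-122282088 and ended upstream of the listed start in all 8 libraries. By −log10 q it lay between the 97.9th and the 99.8th percentile of its list, and by fold between the 74.6th and the 88.1st. KD and control did not separate at the promoter, with a Ser5P difference of 5.5 bp (exact permutation p = 1).

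Peaks ran along the whole of Zfpm1, 17 sites in the body and 8 in the flanks. Ser2P covered 9982 and 8631 bp of the body in the KD libraries and 9850 and 3760 bp in the controls, and Ser5P covered 6235 and 7454 bp in the KD libraries and 6527 and 6637 bp in the controls. As a share of the body, coverage ranged from 6.84% to 18.1%, which placed Zfpm1 at or above the 98.2nd percentile of all genes in each library. Its flanks were at or above the 96.8th percentile. The low Ser2P value came from control 2, the library with the shortest list.

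Recurrent Zfpm1 sites included one at chr8:122321236-122323343, 39.9 kb into the gene, where Ser2P covered 1887 and 1867 bp in the KD libraries and 1930 bp in control 1 in 1 peak each. In Ser2P control 2 the same site held 2 peaks of 744 and 742 bp. Ser5P covered 1982 and 1817 bp there in the KD libraries and 1749 and 1787 bp in the controls. Sites at 14.6 and 27.6 kb into the gene also had a peak in all 8 libraries. Upstream, a site 8.54 kb before the outer 5′ end, at the long noncoding gene Gm39269, had a peak in all 8. Downstream, the sites 4.08, 5.22 and 11.9 kb past the 3′ end did so as well.

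At Zfpm1, 8 of 26 sites had a Ser2P peak and no Ser5P peak (30.8%). All 8 lay 33 kb or more from the outer 5′ end, among 18 sites there, and 0 of the 8 sites before that point lacked a Ser5P peak; the point was chosen after the sites were seen. Of these 8 sites, 4 rested on 1 library and 2 on 2 libraries, and a library without a Ser5P peak may still hold Ser5P reads. A Ser2P peak without a Ser5P peak was found at 13 of the 41 sites of the 4 genes and at 34% of sites genome-wide, and the reverse at 1 of 41, the distal Gata3 site, and at 15.2%. The site 10.1 kb past the 3′ end, at chr8:122347757-122348433, had peaks of 651 and 677 bp in the Ser2P KD libraries and 521 and 341 bp in the Ser2P controls and none in any Ser5P library, a pattern of 0.43% of all sites. A site 7.44 kb past the 3′ end had a Ser2P peak in both KD libraries and in control 1.

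In the 20 kb past the Zfpm1 3′ end Ser2P covered 4521 and 4588 bp in the KD libraries and 5012 and 2927 bp in the controls, and Ser5P covered 2482 and 2686 bp in the KD libraries and 2369 and 2201 bp in the controls. Every Ser2P value there was above every Ser5P value, a description of a zone chosen after the sites were seen. How many genes show that order past the 3′ end was not counted. All Ser2P lists but that of control 2 were longer than any Ser5P list. Ser2P control 2, with the shortest list, covered 2927 bp. The part of list length in this order was not tested. On the upstream side the values overlapped, from 594 to 1128 bp for Ser2P and from 561 to 1031 bp for Ser5P. The protein-coding neighbours Zfp469 upstream and Trhr2 downstream had no promoter peak in any library. A site at chr8:122355479-122356830, 18.4 kb past the Zfpm1 3′ end, overlapped the interval of Trhr2 and had a peak in 6 libraries. The downstream coverage given above includes that site. Gm46056, a long noncoding gene, lies within the downstream flank.

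**Figure D3:**
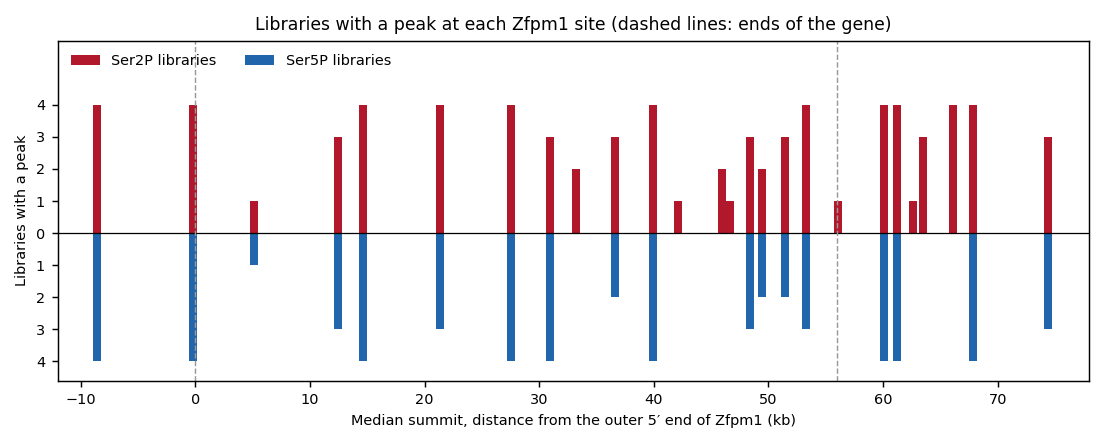
Number of libraries with a peak at each Zfpm1 site (y axis; Ser2P upward, Ser5P downward), by distance in kb of the median summit from the outer 5′ end; dashed lines are the ends of the gene. Sites with Ser2P bars and no Ser5P bar stand at 33.2 kb and beyond.

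Between antibodies, 12 comparisons of covered bp were made, for 4 genes and 3 zones, and 0 had an exact permutation p under 0.05. The largest difference was in the Zfpm1 flanks, at 5221 ± 1150 bp for Ser2P and 3309 ± 316 bp for Ser5P (SD, n = 4 each; two-sided exact permutation p = 0.0571, the smallest possible being 0.0286). The difference was 2270 bp within KD and 1553 bp within control cells. Ser2P control 2, at 3521 bp, fell within the Ser5P range of 3043 to 3717 bp; without that library the difference was 2478 bp. For the Zfpm1 body the values were 8056 ± 2928 bp for Ser2P and 6713 ± 522 bp for Ser5P (SD, n = 4 each; exact permutation p = 0.457), a difference of 1342.5 bp that was 2774 bp without Ser2P control 2. No p is given without that library, since leaving out the lowest Ser2P value sets the order of the rest. For Gata1 the body held 957 ± 296 bp of Ser2P and 1117 ± 107 bp of Ser5P, and for Gata3 698 ± 313 and 692 ± 238 bp (SD, n = 4 each; exact permutation p = 0.400 and 1), differences smaller than the spread between libraries.

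Between KD and control cells, 24 comparisons of covered bp were made at the 4 genes. None could give an exact permutation p below 0.333, the lowest that 2 libraries against 2 allow, so these tests decide nothing. In any zone, 0 members were called KD-only or control-only. Of genes with a peak of the antibody in the zone in any library, KD-only and control-only calls took 2.35% and 0.428% for Ser2P and 0.898% and 0.98% for Ser5P at the promoter. They took 4.87% and 1.42% for Ser2P and 2.56% and 3.53% for Ser5P in the body, and 2.93% and 0.572% for Ser2P and 1.47% and 1.93% for Ser5P in the flanks. At the level of sites, 2 of 40 with Ser2P were KD-only and 0 were control-only, where 5.07% and 1.61% were so called genome-wide, and 3 of 28 with Ser5P were KD-only and 0 were control-only, where 2.17% and 4.13% were. With peaks at −log10 q of at least 5 the Ser5P KD-only sites numbered 0. Without Ser2P control 1 the Ser2P KD-only sites numbered 9, and without Ser5P control 2 those of Ser5P numbered 7. Besides the Gata1 and Gata3 sites given above, the KD-only sites were at Zfpm1: Ser2P at chr8:122331067-122331455, and Ser5P at chr8:122318147-122318678 and chr8:122332958-122333444. By limma with Benjamini-Hochberg adjustment 0 genes passed 0.05 for either antibody in any zone. Unadjusted, 1456 genes were higher and 41 lower in KD cells at p under 0.05 for the Ser2P promoter, and 676 higher and 207 lower for the Ser5P promoter. In the body these counts were 736 and 117 for Ser2P and 304 and 366 for Ser5P, and in the flanks 1758 and 37 for Ser2P and 608 and 427 for Ser5P.

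The Zfpm1 peaks ranked low by fold but not by q. Of its 136 peaks, 58.8% were in the lowest 10% of their list by fold and 3.68% were in the lowest 10% by −log10 q. Its 26 sites had a median fold rank at the 1.93rd percentile and a median q rank at the 51.2nd, and in all 26 the fold rank was below the q rank. The Gata3 sites went the other way, with the fold rank above the q rank in all 6 and medians at the 35.9th and the 15.4th percentile. Gata1 had 5 of 6 sites with the fold rank below the q rank, and Gata2 had 2 of 3. MACS2 computes the fold over a local background, and what the difference in rank comes from was not tested.

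**Figure D4:**
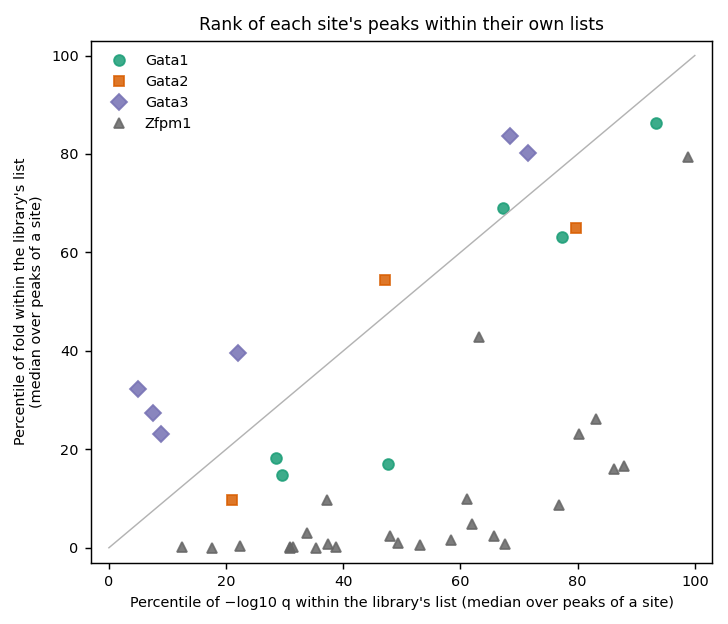
Percentile of fold (y axis) against percentile of −log10 q (x axis) within the library's own list, as the median over the peaks of each site; the line marks equal ranks. All 26 Zfpm1 sites lie below the line and all 6 Gata3 sites above it.

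Other genes of the pathway gave few calls. Gata4, Gata5, Gata6, Zfpm2 and Trps1, the remaining GATA and FOG family genes listed, had no Ser5P promoter peak and no Ser2P body peak in any library. Of 14 genes for GATA1 partners in erythroid cells, such as Tal1, Lmo2, Ldb1 and Klf1, 12 had Ser2P in the body and 6 had Ser5P at the promoter in all 4 libraries of that antibody, where 20.1% and 37.7% of all genes did, and 0 were called in either direction. Of 16 genes for Fog1 corepressor partners, among them the NuRD subunits and CtBP proteins, 8 had a Ser2P body peak and 13 a Ser5P promoter peak in all 4 libraries of that antibody. Mta3, a NuRD subunit gene, was control-only for Ser5P at the promoter, as were 0.98% of genes with a Ser5P promoter peak in any library. Its promoter held 0 and 0 bp in the KD libraries and 266 and 266 bp in the controls. Its Ser2P body coverage was 2620 and 2453 bp in the KD libraries and 2338 and 1322 bp in the controls. With promoter zones at listed starts, 2 of the 16 corepressor genes and 98 of 21532 genes were control-only for Ser5P. These totals include genes with no Ser5P peak in that zone in any library, 1 of the 16 and 11236 of the 21532. Of 17 erythroid GATA1 target genes in the gene table, 9 had a Ser5P promoter peak in all 4 libraries and 0 were called.

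The median difference in covered share of the body for Ser2P, KD minus control, was 0.62 percentage points for GATA1 partners (14 genes covered in at least 2 of 4 libraries), 0.46 for corepressor partners (11 genes) and 2.34 for target genes (9 genes), against 0.53 over 7321 genes. At the Ser5P promoter it was 1.17 (9 genes), -0.32 (14 genes) and -0.97 points (11 genes), against 1.77 over 9231 genes.

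By likeness of covered shares in promoter and body over the 8 libraries, the genes nearest to Gata1 were Stk25, Zfp41 and Camkk1, with root mean square differences of 0.66, 0.66 and 0.77 percentage points. Those nearest to Gata2 were Gdpd2, Xkr7 and Aire (2.26 to 2.64 points), and those nearest to Gata3 were Lrmp, Larp1 and Cldn10 (0.38 points each). The genes nearest to Zfpm1 were B3gnt9, Klf16 and Cdc42ep2 (3.73 to 4.03 points), where the median over all genes was 36.6 points. For Gata3, with its promoter at 0 and a body share of 2.33% on average, the median over all genes was 2.14 points.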

How the data were processed

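CUT&Tag peak lists of 8 libraries were used, called for each library apart, on GRCm38/mm10. The submitters' processing notes name MACS2 2.2.7.1, Bowtie2 2.3.5, cutadapt 2.7, deepTools 3.3.1, Picard 2.21.4 and SAMtools 1.9; settings, and any control library, were not given in the sources used here. The deposited values of a peak are a score for display, a ratio (fold over the local background, at the summit), a −log10 p-value and a −log10 q-value. They served to rank or filter peaks inside their own list. Read depth is unknown, so no counting interval is given, and a library without a peak may still hold reads.

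Gene positions and listed promoters came from RefSeq (GRCm38.p6). Strand came from its promoter table (17491 genes) or, by symbol, from GENCODE vM1 (4041 genes), whose coordinates were not used; 351 of 21883 protein-coding genes had no strand and were left out. The promoter zone was 1000 bp each side of the outer 5′ end, the body the rest of the interval, the flank the rest of 20 kb each side. A gene or site was KD-only when both KD libraries and neither control had a peak (1 bp of overlap), and control-only in the reverse case. Peaks overlapping by at least 1 bp were merged into sites. Covered bp were compared by two-sided exact permutation tests, and covered shares of genes covered in at least 2 of 4 libraries by limma 3.58.1 in R 4.3.3 (trend, Benjamini-Hochberg, 0.05). In simulated Ser2P promoter data of 9391 genes, limma recovered 0%, 49.0% and 99.0% of genes shifted by 2, 10 and 40 median SDs. In the body it recovered 0%, 27.5% and 88.5% for Ser2P (7321 genes) and 0%, 38.5% and 89.5% for Ser5P (6731 genes); the flanks were not simulated. Named genes were the members, their neighbours, called list genes and, for likeness, the 3 nearest by covered share. Alternatives were other peak thresholds, list lengths, widths, windows, flanks and filters, a log scale, a replicate block and each library left out; zones at listed starts and all site counts under other settings were added after seeing the data. The members and lists were chosen with earlier results of these data known.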

Additional observations from a re-analysis of the deposited data

Results flagged for a closer look

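In 2 of the 19 sets of 4 libraries of an antibody that could be checked, the library farthest from the rest stood apart by Dixon's criterion, which chance meets in about 1 of 20 sets. For Gata2 the gene body held 339 bp of Ser2P in control 2, against 455 to 456 bp in the other Ser2P libraries. For Zfpm1 the flanks held 3521 bp of Ser2P in control 2, against 5649 to 6062 bp in the others. Both low values are from the library with the shortest peak list, of 20793 peaks, and the part of list length in them was not tested. Groups of 2 were not checked.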

How the results depend on the processing

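Of 190 KD minus control values under other settings, 167 moved by less than the replicate SD and 22 took the other sign. The 190 include settings with a library left out. Leaving out a library of a pair cannot move a difference by more than this SD, so those settings could not test it. The replicate block left limma at 0 genes in each antibody and zone, as did the settings other than those that follow. With peaks replaced by 100 bp each side of the summit, limma called 214 genes higher and 97 lower in KD cells for the Ser2P promoter, 303 and 119 for the body and 251 and 61 for the flank, and for Ser5P 102 and 150, 202 and 354, and 345 and 507; fixed widths give groups with no variance by construction, and Gata3 was among the Ser5P flank calls (adjusted p = 0.0355). With a flank of 50 kb, Ser2P gave 124 higher and 3 lower, none of the members among them; the cause was not tested. At −log10 q of at least 5, or without Ser5P KD replicate 1, 1 member, Gata2, became control-only for Ser5P in the body.

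At that q minimum, Ser5P sites were KD-only in 0 cases and control-only in 1. With equal numbers of peaks, Ser2P sites were KD-only in 1 case and control-only in 2. Ser5P sites were then KD-only in 3 cases and control-only in 0, with a further Zfpm1 site in place of the distal Gata3 site. Leaving out each library gave 2 to 9 KD-only and 0 to 2 control-only Ser2P sites, with 9 without Ser2P control 1, and 3 to 7 KD-only and 0 to 1 control-only Ser5P sites, with 7 without Ser5P control 2. Of 140 Ser2P minus Ser5P values, 10 changed sign, none past 0.05: Gata1 body at listed starts (128.5 bp), Gata3 body with equal numbers of peaks (-124.5 bp), Gata3 flank at 10 kb (59.8 bp), and with each library left out the values ran from -70.1 to 126.3 bp for Gata2 body, from -96.4 to 121.3 bp for Gata3 body and from -0.25 to 14.1 bp for Zfpm1 promoter. In 4 more of the 140 the exact permutation p fell under 0.05, where it had not in the main setting, and the other 126 did not change side. The 140 include settings with a library left out, and leaving out the lowest Ser2P value sets the order of the rest. Within an antibody, same-numbered KD and control libraries deviated together weakly in promoter and body (correlation 0.0137 to 0.256 over genes). Same-numbered Ser2P and Ser5P libraries were not compared in this way, and the labels give no shared batch. Peak lists limit the results: a peak just under the threshold is missed.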

Other observations

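Several peaks shared an edge to the base between libraries. At the Gata1 start 5 of 6 peaks began at position 7967968 of chromosome X, at the Gata2 inner site 5 of 7 began at 88203104 of chromosome 6, and at the Zfpm1 promoter 5 of 8 began at 122281069 and 6 of 8 ended at 122282070 of chromosome 8.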
